A study of Mus musculus with 3 samples.

Results

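The comparison is of conventional CD4 T cells from MC38-Ova tumours with those from B16-Ova tumours, in a single-cell capture of mouse tumour-infiltrating T cells. A member had 500 or more genes, no more than 10% of its UMIs from mitochondrial genes, and a larger hashtag of 150 or more UMIs that was at least 3 times the other. They also held at least 1 UMI each of Cd3e and Cd4 and none of Foxp3, Cd8a or Cd8b1. The rule chose 1392 of 19912 barcodes, 700 with hashtag 1, which marks B16-Ova, and 692 with hashtag 2, which marks MC38-Ova. Since raw UMIs of Cd3e, Cd4, Foxp3, Cd8a and Cd8b1 chose the cells, these genes are described and not compared.

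Tumours grew under the skin of C57BL/6 mice and were taken on day 14. The growth protocol in the labels names MC38-Ova only, and the same site and strain were assumed for B16-Ova. B16-Ova is a melanoma line and MC38-Ova a colon carcinoma line, each engineered to make ovalbumin, so both groups share that model antigen. Cells were sorted as TCRB+ CD3+ CD90.2+ CD11b-, tagged, pooled and loaded in 1 capture. Oligonucleotide tags reported PD-1, Tim-3 and, through biotin, the lectin L-Pha, which binds a branched form of N-glycan. How many mice each hashtag pools is not given in the sources used here. There is 1 pool of cells per tumour, so no test was possible: ratios are given with exact 95% intervals that cover counting error only, and the spread between animals or tumours is unknown.

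Conventional CD4 T cells recognise peptides on MHC class II and direct other immune cells through secreted cytokines. T helper 1 cells make interferon gamma under the factor T-bet, type 2 helper cells make interleukins 4, 5 and 13 under GATA3, and regulatory T cells, set apart by FOXP3, restrain both. In tumours the kind of helper cell present is known to shape macrophages, dendritic cells and CD8 T cells nearby.

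The 15-base hashtag oligonucleotides are shown because they alone assign a cell to a tumour. They are given as the labels list them, in lower case.
hashtag 1, B16-Ova: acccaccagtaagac
hashtag 2, MC38-Ova: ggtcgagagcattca

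The promoters of Ifitm1, Ifitm2 and Ifitm3, neighbours on chromosome 7, are shown because these genes were all higher in the MC38-Ova pool. Each window runs from 250 bases before to 50 after the transcription start (RefSeq, GRCm38.p6), and capitals mark GAAA followed by any 2 bases and GAAA again, searched on both strands as a pattern of the interferon-stimulated response element. The pattern occurs in 3.44% of 32851 promoter windows of the same length. The Ifitm1 window had 0 matches, the Ifitm2 window 1 and the Ifitm3 window 2. A match is a description of the sequence and shows no bound factor.
Ifitm1, chr7:140967826-140968125, plus strand: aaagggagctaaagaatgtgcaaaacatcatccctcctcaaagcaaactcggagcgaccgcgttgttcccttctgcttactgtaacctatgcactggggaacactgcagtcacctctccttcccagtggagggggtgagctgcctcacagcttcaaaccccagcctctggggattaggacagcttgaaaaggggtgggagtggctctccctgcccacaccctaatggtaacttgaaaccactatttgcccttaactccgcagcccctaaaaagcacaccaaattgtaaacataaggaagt
Ifitm2, chr7:140955912-140956211, minus strand: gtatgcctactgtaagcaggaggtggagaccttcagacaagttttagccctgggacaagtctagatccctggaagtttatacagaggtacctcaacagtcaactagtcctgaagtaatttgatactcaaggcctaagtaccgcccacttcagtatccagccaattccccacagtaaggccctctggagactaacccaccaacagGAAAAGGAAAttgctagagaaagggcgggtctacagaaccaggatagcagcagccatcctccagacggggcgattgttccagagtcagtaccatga
Ifitm3, chr7:141010695-141010994, minus strand: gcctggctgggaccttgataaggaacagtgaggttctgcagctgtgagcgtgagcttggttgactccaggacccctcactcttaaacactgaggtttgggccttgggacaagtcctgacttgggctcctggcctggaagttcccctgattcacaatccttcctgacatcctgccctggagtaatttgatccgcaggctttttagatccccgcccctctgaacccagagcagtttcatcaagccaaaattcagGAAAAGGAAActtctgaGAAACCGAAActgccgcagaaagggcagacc

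The gated cells made up 10.6% of the 6585 hashtag-assigned B16-Ova cells (exact interval 9.90 to 11.4) and, of the 8407 from MC38-Ova, 8.23% (7.65 to 8.84). Shares rest in part on the sort. Their RNA summed to 3519309 UMIs in B16-Ova and 4121189 in MC38-Ova, with medians of 4257.5 and 4710 UMIs and 1667.5 and 1771 genes per cell. A further 276 cells met the RNA conditions without a hashtag call, 193 of them with at least 150 UMIs of both hashtags. At the thresholds, the lowest gene number inside was 506 and the highest outside 498, and the lowest hashtag count inside was 152 against 148 outside. Of the gated cells, 651 held exactly 1 Cd4 UMI, and 306 cells with exactly 1 Foxp3 UMI and no Cd8 UMI fell outside.

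The label was read against 10 T cell markers other than the gate genes Cd3e and Cd4. They include CD3 chain and receptor constant genes that CD8 and Treg cells also make, so they cannot separate CD4 cells from those. The 10 markers summed to 5454 CPM (counts of a gene normalised to the pool's total RNA UMIs) in B16-Ova and 5372 CPM in MC38-Ova, with a median ratio of 0.91 and none past 2-fold. Treg markers other than Foxp3 were present and in sum stood higher in MC38-Ova: the 13 genes summed to 1829 CPM in B16-Ova and 2342 CPM in MC38-Ova. Of the 11 that passed the UMI minimum, 8 had a ratio above 1, beside 46.6% of all genes that passed it. Ikzf2 was not among the 8, at 0.92 (0.82 to 1.03). Cells with at least 10 UMIs of the Treg markers made up 28.3% of the B16-Ova cells (25 to 31.8) and, for MC38-Ova, 47.7% (43.9 to 51.5). These shares were not thinned to equal depth, and median depths were 4257.5 and 4710 UMIs. The gate cannot separate Treg cells in which no Foxp3 UMI was drawn. When cells holding a UMI of Il2ra or Ikzf2, both Treg markers, were left out, 404 of 700 B16-Ova and 355 of 692 MC38-Ova cells remained. That step cannot tell Treg cells from other cells that hold these genes. Of 39 named genes chosen as past 2-fold in these data, 30 were still past it. The 30 include Pmel and Cck, whose UMIs sat mostly in few cells, so the count says little about Treg cells. The other 9 were Ahr at 1.98, Bnip3 at 1.94, H2-Eb1 at 1.75, Atf3 at 1.72, Rsad2 at 1.69, Cyp51 at 0.82, Ccl1 at 0.81, Penk at 0.66 and Xcl1 at 0.62. The 11 NK and NKT markers summed to 347 and 491 CPM. Of the 7 that passed the UMI minimum, 6 had a ratio above 1 and 2 were past 2-fold higher, with a median of 1.69. Xcl1 went the other way at 0.47. Cells with at least 10 UMIs of these markers numbered 32 of 700 in B16-Ova and 62 of 692 in MC38-Ova, not thinned to equal depth.

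A few cells carried RNA of another cell type, and this touches many of the widest ratios. In B16-Ova, 1 cell of 66112 RNA UMIs held 1296 of the pool's 1415 UMIs of melanoma markers. In MC38-Ova, 6 cells held 2468 of 2854 UMIs of dendritic markers, and 5 cells held 421 of 593 UMIs of stroma markers. Macrophage markers summed to 62.5 CPM in B16-Ova and 139 CPM in MC38-Ova, and colon carcinoma markers stood at 7.39 and 12.4 CPM, with Krt8, Krt19, Krt7 and Cldn7 at 0 in both. Leaving out the cells with at least 10 UMIs of macrophage, dendritic, melanoma or stroma markers removed 11 B16-Ova and 12 MC38-Ova cells, which held 4.14% and 9.38% of the pools' RNA UMIs. Results below are given with and without these marker-rich cells where that matters.

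Of 6693 genes with at least 100 UMIs in both sums together, 85 (1.27%) stood at a ratio of 2 or more in MC38-Ova over B16-Ova, and 31 (0.463%) at 0.5 or less. The median ratio was 0.99, and the central 90% of genes lay between 0.73 and 1.42. Of the 6693 genes, 3120 (46.6%) had a ratio above 1 and 3573 a ratio below 1. Without the marker-rich cells, 6414 genes passed the minimum, of which 47 (0.733%) stood higher and 22 (0.343%) lower, and 43 and 21 of these were among the first counts. In 45 of the 85 genes, 5 MC38-Ova cells held most of the pool's UMIs. Leaving out, for each gene, the 5 cells of each pool with most of its UMIs gave 68 higher genes (1.02%) and 29 lower genes (0.433%), with 57 and 20 of the first counts among them.

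**Figure D1:**
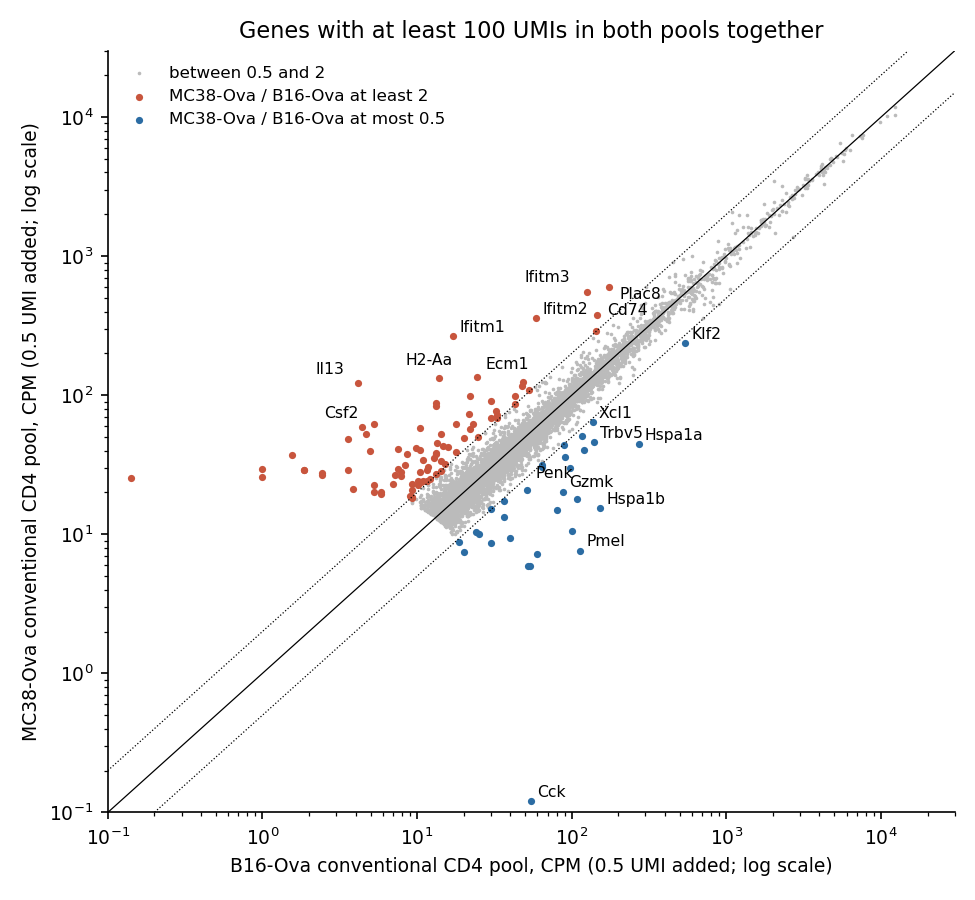
Expression in the summed B16-Ova (x axis) and MC38-Ova (y axis) conventional CD4 cells, in CPM on log axes with 0.5 UMI added to each sum, one point per gene; the solid line marks equality and the dotted lines 2-fold. Most of the 6693 genes lie between the dotted lines, with Il13, Ifitm1 and Csf2 farthest toward MC38-Ova among labelled T cell genes and Hspa1b, Hspa1a and Gzmk toward B16-Ova.

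Among the 15 leading genes of each direction, MHC class II genes and melanoma genes followed the marker-rich cells. H2-Aa, a chain of the class II molecule that presents peptide to CD4 cells, stood at 13.6 CPM in B16-Ova and 134 CPM in MC38-Ova, and its ratio of 9.80 (7.29 to 13.5) became 1.26 (0.75 to 2.12) without them. H2-Ab1 went from 6.72 to 1.33, H2-Eb1 from 6.44 to 0.90, the monocyte chemokine gene Ccl2 from 11.5 to 0.68 and Gng11 from 13.8 to 1.96. Pmel, a melanosome protein gene, had 400 UMIs in B16-Ova, 378 of them in 1 cell, and its ratio went from 0.066 to 1.27. Dct, Mlana, Tyrp1 and Ptgds shared that cell and stood between 0.79 and 1.32 without it and the other marker-rich cells. Cck had 191 UMIs, all in 1 B16-Ova cell, and none in MC38-Ova, at least 74.6-fold lower with 3 UMIs per pool as the floor. That cell was among the marker-rich cells, so no Cck ratio was left without them.

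**Figure D2:**
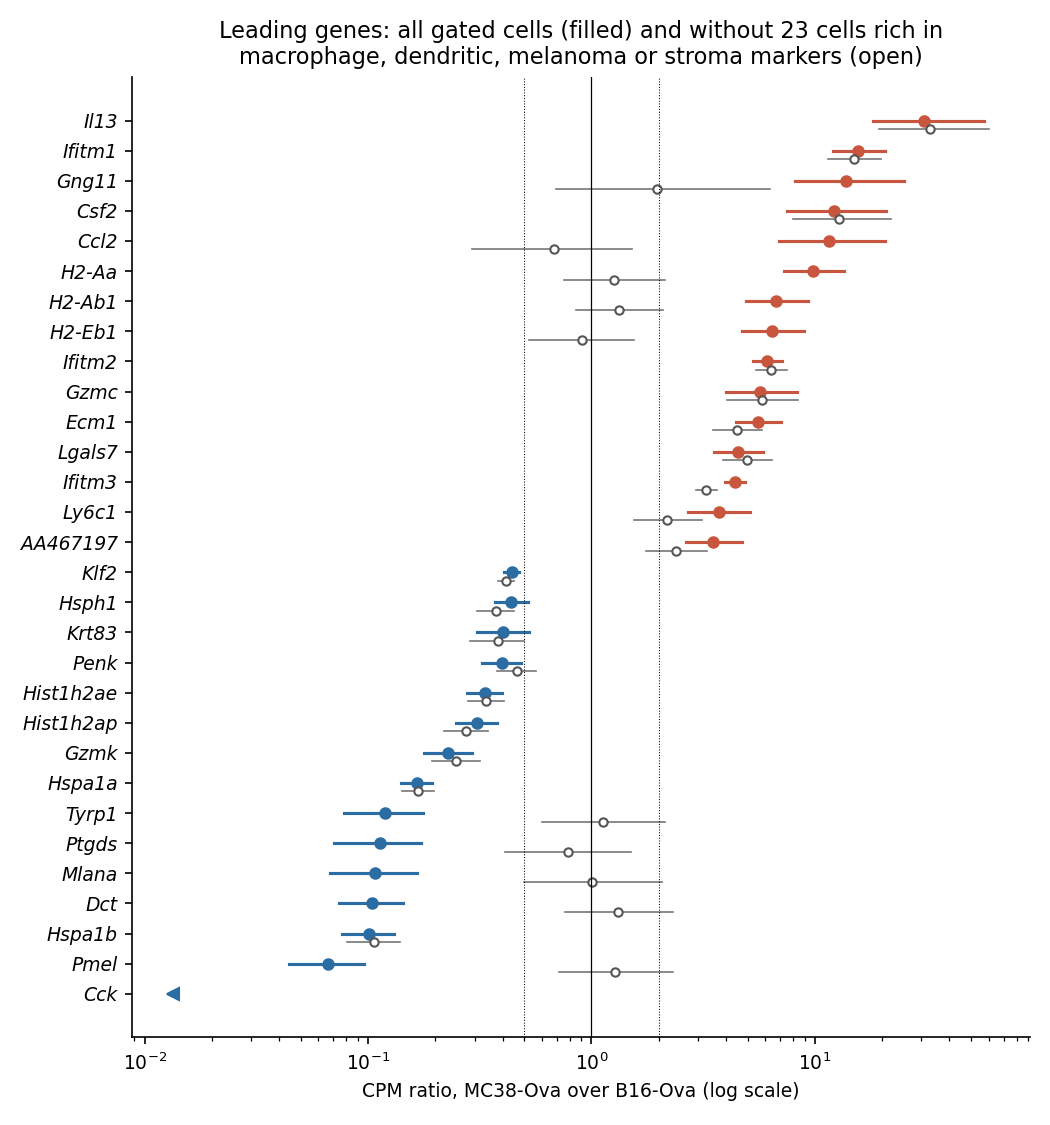
CPM ratio of MC38-Ova over B16-Ova on a log axis for the 15 highest and 15 lowest genes; filled points use all gated cells, open points leave out the marker-rich cells, bars are exact 95% counting intervals, and the triangle for Cck is the bound set by a floor of 3 UMIs. Open points of H2-Aa, Ccl2, Pmel and Dct lie near 1, while those of Il13, Ifitm1, Ifitm2, Hspa1a and Gzmk stay beside the filled ones.

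Type 2 cytokine transcripts were higher in the MC38-Ova pool and sat in a minority of its cells. Il13 (chromosome 11, 53631324 to 53634702), which encodes an effector cytokine of type 2 responses, stood at 3.98 CPM in B16-Ova (14 UMIs in 6 cells) and 123 CPM in MC38-Ova (506 UMIs in 41 cells), a ratio of 30.9 (18.2 to 56.9). The MC38-Ova transcripts were uneven, since 5 of those cells held 373 UMIs. Csf2 (chromosome 11, 54247271 to 54249667), the gene of the myeloid growth factor GM-CSF, stood at 5.11 CPM in B16-Ova (18 UMIs in 6 cells) and 62.1 CPM in MC38-Ova (256 UMIs in 33 cells), a ratio of 12.1 (7.53 to 20.8). Both ratios exceeded 2 under every alternative that gave a value. The lowest for Csf2 was 3.45, without cells holding Ifng. For Il13 the lowest was 2.98, after cells with a UMI of the Treg markers Il2ra or Ikzf2 were left out. That step cannot tell Treg cells from other cells that hold these genes. Of the 50 MC38-Ova cells with a UMI of Il4, Il5 or Il13, 27 held Il2ra.

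Other genes of the type 2 list differed less. Il4, which drives and marks type 2 helper cells, had 10 UMIs in 8 B16-Ova cells and 82 UMIs in 27 MC38-Ova cells, too few for the 100-UMI minimum, and a ratio of 7.0 (3.62 to 15.1). Il5, the eosinophil growth factor gene, had 48 UMIs in 8 B16-Ova cells and 39 UMIs in 11 MC38-Ova cells, with an interval that held 1. Areg, the gene of the tissue-repair factor amphiregulin, stood at 125 and 192 CPM, a ratio of 1.54 (1.37 to 1.73), whereas in Treg cells its ratio was 0.50 (0.47 to 0.53). Of the list's 10 genes 4 passed the UMI minimum, Il13, Csf2, Il10 and Areg, of which 2, Il13 and Csf2, were past 2-fold. Il10, also on the Treg marker list, had a ratio of 1.97 (1.41 to 2.78). Gata3, the type 2 lineage factor gene, stood at 81.8 CPM in B16-Ova and 112 CPM in MC38-Ova, a ratio of 1.37 (1.18 to 1.60), and none of the 9 type 2 factor genes measured was past 2-fold. Il1rl1, the gene of the interleukin 33 receptor, had a ratio of 2.88 with all cells and 1.63 without the marker-rich ones, 1 MC38-Ova cell holding 68 of its 155 UMIs.

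Depth was equalised by drawing 2000 RNA UMIs from each cell and leaving out shallower ones, 77 in B16-Ova and 64 in MC38-Ova. A transcript of Il13 was then found in 0.482% of the B16-Ova cells (0.0994 to 1.40) and, for MC38-Ova, in 4.14% (2.72 to 6.01), against 0.857% and 5.92% unthinned. In CD8 cells (Cd3e and Cd8a or Cd8b1 present, Cd4 absent) thinned alike, the Il13 shares were 0.124% and 0.33%, and in Foxp3-positive CD4 cells they were 0% and 0.371%. Median depths of the thinned cells before drawing were 4541 and 5018 UMIs for conventional CD4 and 7367 and 7196 UMIs for CD8. A Csf2 transcript was found in 0.642% (0.175 to 1.64) and 2.87% (1.71 to 4.49), against 0.58% and 0.809% of CD8 cells. An Ifng transcript, for interferon gamma, was found in 25.2% and 23.7%, with overlapping intervals.

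Cells with at least 1 UMI of Il4, Il5 or Il13 numbered 18 in B16-Ova and 50 in MC38-Ova. Within MC38-Ova these 50 cells, compared with the 642 others, held 1185 against 265 CPM of Ifitm2, 1544 against 494 CPM of Plac8 and 446 against 59.0 CPM of Lgals7. They held less of the Th1-linked chemokine gene Ccl5, 352 against 1488 CPM, and of Klf2, 109 against 252 CPM. In B16-Ova the 18 cells also held less Ccl5 than the 682 others, 1723 against 2728 CPM, but not less Klf2, 612 against 537 CPM. Of the 41 MC38-Ova cells with Il13, 34 also held Ifitm2 and 19 also held Ifng. These cells were picked by their cytokine UMIs and had a higher median depth, 7285.5 against 4568 UMIs, so co-detection is a description.

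The neighbouring genes Ifitm1, Ifitm2 and Ifitm3, which encode interferon-induced membrane proteins that limit virus entry, were higher in MC38-Ova. Ifitm1 stood at 17.0 CPM in B16-Ova (60 UMIs in 37 cells) and 267 CPM in MC38-Ova (1099 UMIs in 59 cells), a ratio of 15.6 (12.1 to 20.6). Ifitm2 stood at 58.8 CPM (72 cells) and 359 CPM (201 cells), a ratio of 6.11 (5.28 to 7.10). Ifitm3 stood at 125 CPM (138 cells) and 551 CPM (252 cells), a ratio of 4.40 (3.97 to 4.88). Ifitm2 and Ifitm3 were the more widely detected, and Ifitm1 was concentrated, 5 MC38-Ova cells holding 550 of its UMIs.

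The Ifitm differences remained past 2-fold without the marker-rich cells, at 14.9, 6.37 and 3.27. Ifitm1 was the most variable across alternatives, at 4.66 without cells holding Il2ra or Ikzf2, 4.78 without cells holding Ifng and 7.61 when each cell had equal weight. Without the cells holding Il4, Il5 or Il13 the ratios were 11.4, 4.79 and 4.15. After thinning, Ifitm3 was found in 13.3% of the B16-Ova cells (10.8 to 16.2) and, for MC38-Ova, in 28% (24.5 to 31.7), and Ifitm2 in 5.94% and 19.4%. Ifitm10, another family member, stood at 24.7 and 18.4 CPM, with an interval of 0.54 to 1.03.

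Other interferon-stimulated genes shifted by less. Of 31 genes of that list 30 passed the UMI minimum, and 25 lay above a ratio of 1, beside 46.6% of all genes. Past 2-fold was 1, beside 1.27% of all genes, and the median was 1.24 beside 0.99 for all genes. Rsad2, which encodes the antiviral enzyme viperin, stood at 32.7 CPM in B16-Ova (67 cells) and 72.1 CPM in MC38-Ova (111 cells), a ratio of 2.21 (1.77 to 2.76), or 1.69 without cells holding Il2ra or Ikzf2. Ifit3 had a ratio of 1.88 (1.62 to 2.19), and Isg15, a ubiquitin-like modifier, 1.41 (1.32 to 1.51). The median of the list was 2.44 in Treg cells and 1.87 in CD8 cells of the same capture.

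**Figure D3:**
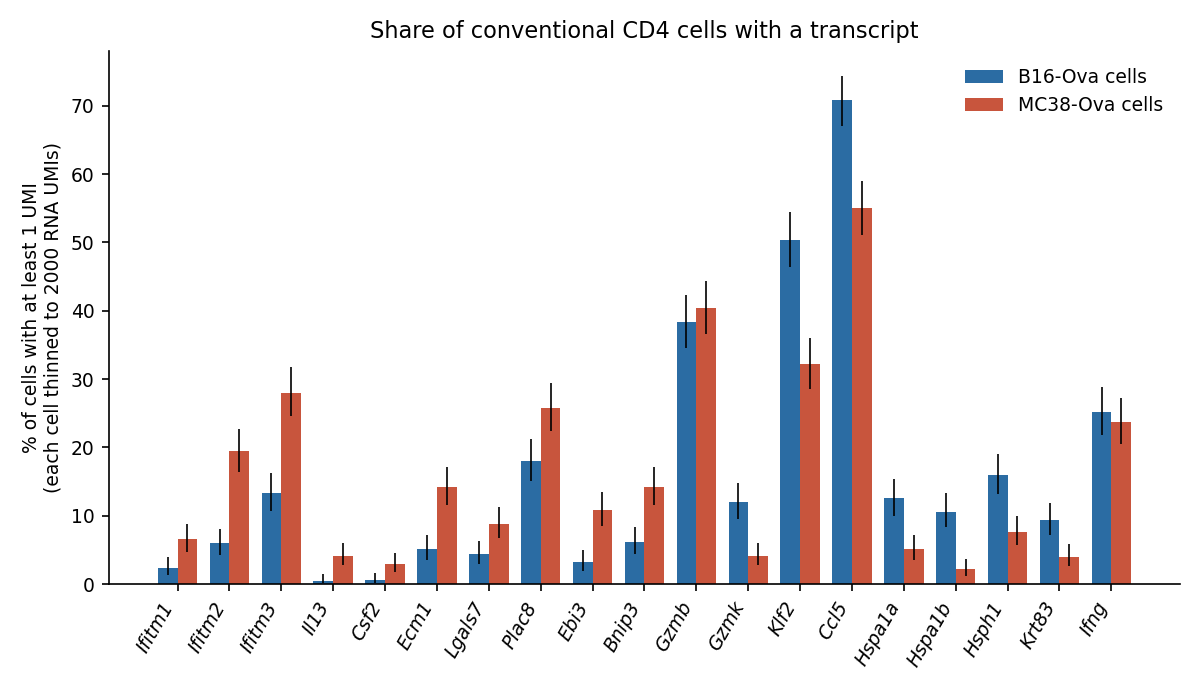
Percentage of conventional CD4 cells with at least 1 UMI of each gene after each cell was thinned to 2000 RNA UMIs (y axis), for 623 B16-Ova and 628 MC38-Ova cells; error bars are exact 95% Clopper-Pearson intervals. Ifitm2, Ifitm3, Ecm1 and Ebi3 were found in more MC38-Ova cells and Klf2, Gzmk, Hspa1a and Hspa1b in more B16-Ova cells, while the Ifng bars overlap.

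Ecm1, Lgals7, Plac8, Ebi3 and Ahr were also higher in MC38-Ova. Ecm1, which encodes a secreted glycoprotein linked to type 2 helper cell exit from lymph nodes, stood at 24.2 CPM in B16-Ova (63 cells) and 134 CPM in MC38-Ova (154 cells), a ratio of 5.57 (4.42 to 7.08) and 4.48 without the marker-rich cells. Lgals7, a galectin gene, stood at 21.9 CPM (43 cells) and 98.8 CPM (99 cells), a ratio of 4.51 (3.53 to 5.84). Plac8 stood at 173 CPM (199 cells) and 602 CPM (247 cells), a ratio of 3.48 (3.18 to 3.81). Ebi3, a subunit gene of interleukins 27 and 35 and a member of the Treg marker list, stood at 23 CPM (54 cells) and 62.4 CPM (145 cells), a ratio of 2.71 (2.10 to 3.52), and the part of Treg cells in it was not tested. Ahr, the gene of the aryl hydrocarbon receptor, a ligand-activated transcription factor, stood at 14.2 CPM (42 cells) and 33.7 CPM (94 cells), a ratio of 2.37 (1.71 to 3.35), or 1.98 without cells holding Il2ra or Ikzf2. Without cells holding Il4, Il5 or Il13 the ratio was 5.59 for Ecm1, 3.24 for Lgals7, whose MC38-Ova UMIs lay to 46.4% in such cells, and 2.91 for Plac8.

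Glycolysis and hypoxia genes leaned toward MC38-Ova. Of 23 glycolysis and hypoxia genes 22 passed the minimum, and 19 had a ratio above 1, beside 46.6% of all genes. Past 2-fold was 1, beside 1.27% of all genes, and the median was 1.38. Bnip3, a hypoxia-responsive mitophagy gene, stood at 47.7 CPM in B16-Ova (87 cells) and 117 CPM in MC38-Ova (183 cells), a ratio of 2.46 (2.06 to 2.94), or 1.94 without cells holding Il2ra or Ikzf2. Pgk1, an enzyme of glycolysis, had a ratio of 1.60 (1.51 to 1.70) and Ldha, which makes lactate, 1.27 (1.22 to 1.32). The 19 oxidative phosphorylation genes had a median of 1.04. In Treg and CD8 cells the median of the glycolysis list was 1.23 and 1.24.

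Cytotoxic and costimulatory genes were mixed. Gzmb, the granzyme B gene of killer cells, stood at 453 CPM in B16-Ova and 901 CPM in MC38-Ova, a ratio of 1.99 (1.87 to 2.11), just inside 2-fold, which became 2.15 without the marker-rich cells. After thinning it was found in 38.4% and 40.4% of cells, so the difference lay more in UMIs per cell than in cells. Gzmc had a ratio of 5.67, but 1 MC38-Ova cell held 100 of its 239 UMIs, and the ratio was 1.52 without cells holding Mki67, Top2a or Rrm2. Tnfrsf4, the gene of the costimulator OX40, stood at 425 and 710 CPM, a ratio of 1.67 (1.57 to 1.78), and Tnfrsf18, for GITR, at 465 and 721 CPM, a ratio of 1.55 (1.46 to 1.65). Both genes also mark Treg cells, and Il2ra, another, had a ratio of 1.86 (1.59 to 2.17) that became 2.01 without the marker-rich cells. Without cells holding Il2ra or Ikzf2 the ratios were 1.71 for Tnfrsf4 and 1.63 for Tnfrsf18. The part of Treg cells that hold neither gene was not tested.

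Genes lower in the MC38-Ova pool included heat-shock genes, Gzmk and Klf2. Hspa1b, which encodes an inducible HSP70 chaperone, stood at 152 CPM in B16-Ova (112 cells) and 15.3 CPM in MC38-Ova (29 cells), 9.93-fold lower (7.63 to 13.1). Hspa1a, its neighbour, stood at 271 CPM (122 cells) and 44.6 CPM (56 cells), 6.07-fold lower (5.17 to 7.14). The 2 genes are near-identical copies, so the split of reads between them is uncertain. Hsph1, an HSP110 chaperone gene, stood at 116 CPM (198 cells) and 50.7 CPM (123 cells), 2.29-fold lower (1.93 to 2.71), and at 0.54 without cells holding Ifng. Of 12 heat-shock genes 11 passed the minimum, 10 had a ratio below 1 and 3 were past 2-fold. Of all 6693 genes, 3573 had a ratio below 1 and 0.463% were past 2-fold lower. Heat-shock transcripts also respond to tissue dissociation, and of 17 dissociation stress genes 14 had a ratio below 1, with a median of 0.78 and Atf3 at 2.00. Since each tumour was processed as 1 pool, handling and tumour cannot be told apart.

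Gzmk, the granzyme K gene of memory-like effector cells, stood at 88.1 CPM in B16-Ova (143 cells) and 20.1 CPM in MC38-Ova (54 cells), 4.37-fold lower (3.42 to 5.64). After thinning it was found in 12% (9.59 to 14.9) and 4.14% (2.72 to 6.01) of cells, and in 20.8% and 16.5% of CD8 cells. Klf2, which encodes a factor for trafficking and quiescence, stood at 539 CPM (451 cells) and 237 CPM (345 cells), 2.27-fold lower (2.10 to 2.46), and the thinned shares were 50.4% (46.4 to 54.4) and 32.2% (28.5 to 36.0). Krt83, a keratin gene, stood at 51.1 CPM (105 cells) and 20.6 CPM (54 cells), 2.48-fold lower (1.91 to 3.25). Penk, the proenkephalin gene, was 2.53-fold lower in CPM but was found in similar cell numbers, 54 and 51, and its ratio was 0.66 without cells holding Il2ra or Ikzf2. The replication histone genes Hist1h2ap and Hist1h2ae had ratios of 0.31 and 0.33, which became 0.64 and 0.71 without cells holding Ifng. Each was past 2-fold in 21 of 23 alternatives, and the highest ratio reached was 0.87 for Hist1h2ap and 0.71 for Hist1h2ae.

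Th1 genes lay mostly toward B16-Ova and none of the 16 measured of 18 passed 2-fold. Their median ratio was 0.76 beside 0.99 for all genes, and 11 were below 1, as were 3573 of all 6693 genes. Ccl5, a chemokine gene of effector T cells, stood at 2695 CPM in B16-Ova and 1371 CPM in MC38-Ova, 1.96-fold lower (1.90 to 2.03), and the thinned shares were 70.8% and 55.1%. Cxcr3, the receptor for interferon-induced chemokines, stood at 247 and 159 CPM, a ratio of 0.64 (0.58 to 0.71), and Tbx21, the gene of T-bet, at 119 and 89.8 CPM, a ratio of 0.75 (0.65 to 0.87). Ifng stood at 221 and 172 CPM, a ratio of 0.78 (0.70 to 0.86), whereas in CD8 cells its ratio was 2.69 (2.62 to 2.77). Cxcr6, the receptor for CXCL16, went the other way at 1.41 (1.31 to 1.51). Xcl1, a chemokine gene for cross-presenting dendritic cells, had a ratio of 0.47 that became 0.75 without the 5 cells of each pool with most of its UMIs, 1 B16-Ova cell holding 186 of 481.

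Cholesterol synthesis genes also lay toward B16-Ova. Of 19 genes 13 passed the minimum and 12 had a ratio below 1, as did 3573 of all 6693 genes. Cyp51, a sterol demethylase gene, was past 2-fold at 63.9 CPM in B16-Ova and 30.3 CPM in MC38-Ova, 2.11-fold lower (1.69 to 2.64). It moved to 0.82 without cells holding Il2ra or Ikzf2. Hmgcs1, an early enzyme of the pathway, had a ratio of 0.61 (0.47 to 0.79). The list's median of 0.73 compared with 0.49 in Treg cells and 0.53 in CD8 cells.

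**Figure D4:**
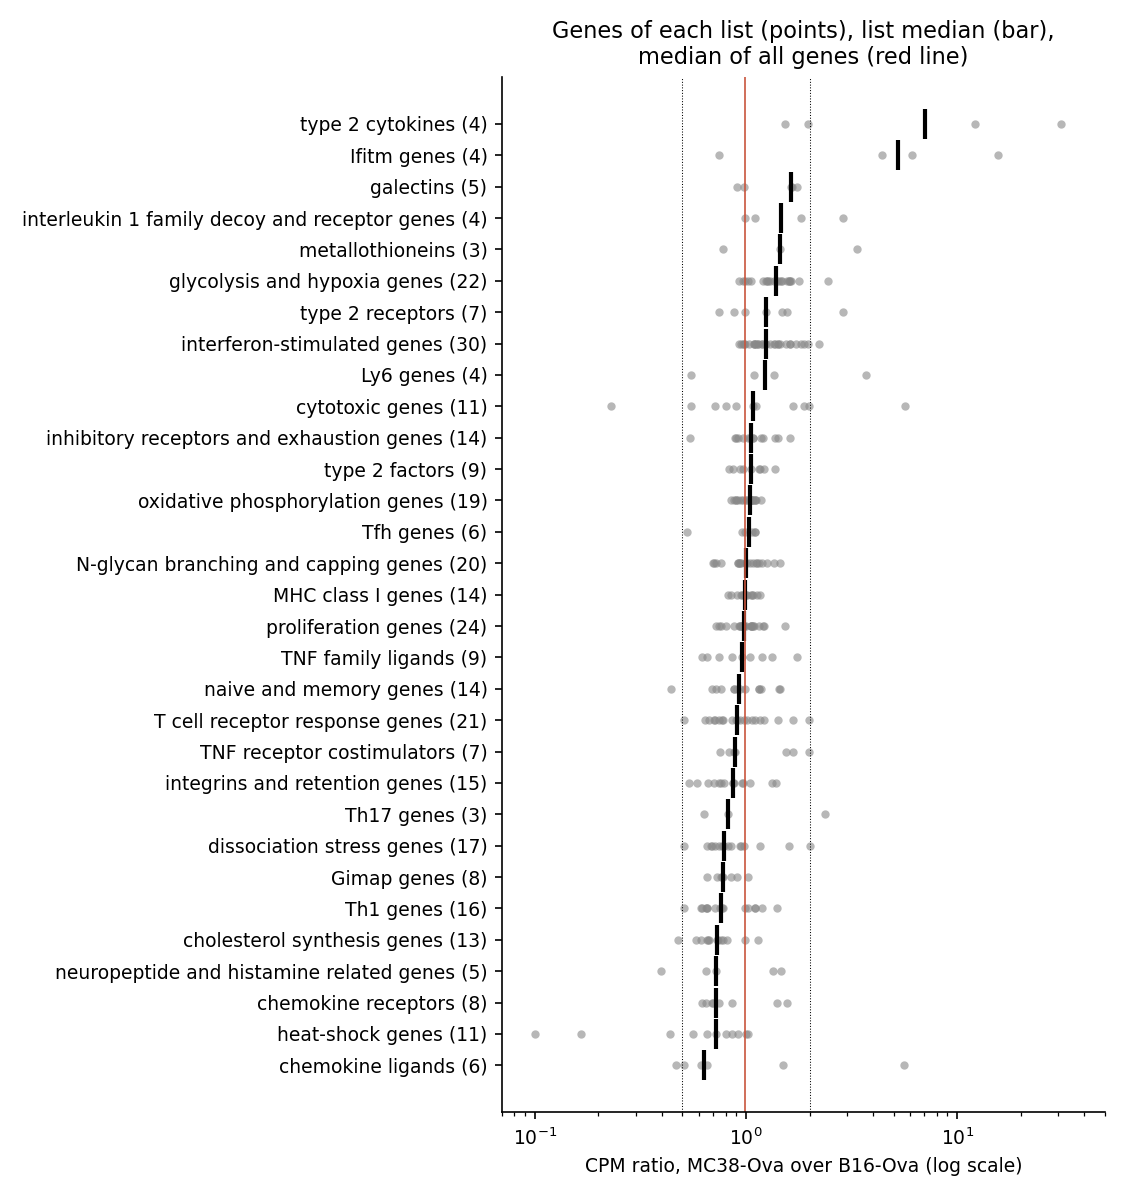
CPM ratio of MC38-Ova over B16-Ova on a log axis for genes of each list with at least 100 UMIs (grey points, number in brackets), with the list median as a black bar, the median of all genes as a red line and 2-fold as dotted lines. The type 2 cytokine and Ifitm medians lie far right at 7.06 and 5.25, each over 4 genes. The type 2 cytokine genes shown are Il13, Csf2, Il10 and Areg, since Il4 and Il5 had too few UMIs. The chemokine ligand and heat-shock medians lie left at 0.63 and 0.72.

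Many other programmes differed little. The 24 proliferation genes measured had a median ratio of 0.98, the 14 MHC class I genes 0.99, the 20 N-glycan genes 1.00 and the 14 naive and memory genes 0.92. Among N-glycan genes Mgat5, whose enzyme makes the branch that L-Pha binds, stood at 21.6 CPM in B16-Ova and 22.6 CPM in MC38-Ova, a ratio of 1.04 (0.76 to 1.43). Inhibitory receptor genes had a median of 1.06, with Pdcd1, the gene of PD-1, at 0.97 (0.87 to 1.09) and Ctla4 at 1.20 (1.13 to 1.27). No gene of these lists but Klf2 was past 2-fold.

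A few T cell receptor segments differed between the pools. Of 19 Trbv segments with at least 100 UMIs, 2 were past 2-fold higher in MC38-Ova and 1 lower. Of 24 such Trav segments 1 was higher and 3 were lower, beside 1.27% and 0.463% of all genes. Trbv5 stood at 139 CPM in B16-Ova (489 UMIs) and 45.6 CPM in MC38-Ova (188 UMIs), 3.05-fold lower (2.57 to 3.62). It was the most abundant Trbv segment in 18.9% of 660 B16-Ova cells with any (16 to 22.1) and 6.86% of 656 MC38-Ova cells (5.05 to 9.07). The alpha segments Trav7-4 and Trav16n stood 6.14-fold and 5.39-fold lower in MC38-Ova. In B16-Ova, 37 of 64 cells with Trav7-4 and 39 of 75 with Trav16n also held Trbv5, beside 22.3% of all gated cells. In MC38-Ova those counts were 4 of 28 and 5 of 25, beside 9.54%. Trav7-4 has near-identical copies such as Trav7d-4, so counts between copies are uncertain, and the receptor library was not analysed here. Trbv4 and Trbv14 were higher in MC38-Ova, at CPM ratios of 3.17 (2.20 to 4.66) and 3.83 (2.54 to 5.94). As the most abundant segment, Trbv4 was found in 8 of 660 B16-Ova cells and 22 of 656 MC38-Ova cells, and Trbv14 in 8 and 12, with overlapping intervals for both.

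**Figure D5:**
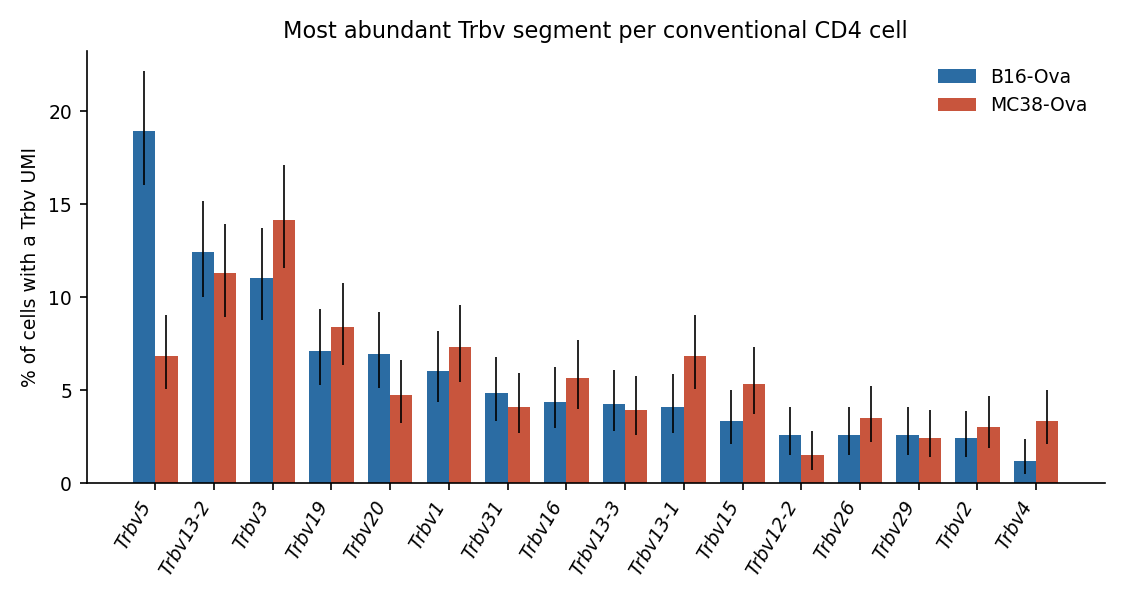
Percentage of conventional CD4 cells with a Trbv UMI (y axis) in which each segment was the most abundant, for segments of at least 2% in either pool; error bars are exact 95% Clopper-Pearson intervals. Trbv5 stands at 18.9% in B16-Ova and 6.86% in MC38-Ova, while the intervals of the other segments shown overlap.

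Surface tags differed little between the pools. The median L-Pha tag was 245.5 UMIs for B16-Ova cells, with quartiles at 171.75 and 381.25, and 254.5 UMIs for MC38-Ova cells, with quartiles at 187 and 396, and the 95% intervals of the medians, 232 to 261 and 243 to 269, overlapped. Per 1000 RNA UMIs the medians were 58.2 and 56.0. PD-1 had medians of 16 and 17 UMIs and Tim-3 18 in both, beside 11 and 14 in cells without a hashtag, where L-Pha was 134. In Treg cells the L-Pha medians were 680 and 575, and in CD8 cells 452 and 369. No capture without the lectin was used here, so these levels hold an unknown background.

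The higher and lower genes were then read in the other 2 gates, which are different cells of the same 2 pools. Leaving out receptor segments, 82 genes were higher in conventional CD4 cells. In Treg cells 64 of them passed the UMI minimum, of which 27 were also past 2-fold higher and 3 past 2-fold lower, where 1.46% of 7063 genes were higher. In CD8 cells 81 passed, with 28 higher and 3 lower, where 1.73% of 10280 genes were higher. Of 27 lower genes, 7 of 17 in Treg cells and 15 of 27 in CD8 cells were lower there too, beside 0.934% and 1.85% of all genes. Marker-rich cells were kept in these counts. Without them in conventional CD4 cells, 43 of 85 higher and 21 of 31 lower genes, segments included, stayed past 2-fold. The higher genes include the stroma marker Col3a1, at 16.9 in conventional CD4, 45.9 in Treg and 10.5 in CD8 cells. The part of marker-rich cells in the overlap was not tested. Hspa1a was lower in all 3 gates, with ratios of 0.22 in Treg and 0.13 in CD8 cells. Ifitm1 was higher in all 3, at 2.29 in Treg and 15.8 in CD8 cells. Lgals7, at 4.51 in conventional CD4 cells, stood at 1.36 (1.00 to 1.87) and 1.39 (1.01 to 1.92) in the other gates, and Klf2 at 0.92 (0.84 to 1.01) in Treg and 0.63 (0.61 to 0.65) in CD8 cells. Whether such gates differ was not tested.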

How the data were processed

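RNA, hashtags and antibody tags of 19912 barcodes from 1 capture were read from the raw UMI count matrix as deposited. Cell Ranger 3.1.0, R 3.6.1, Seurat 3.1.0 and the build mm10 are named in the submitters' processing notes. The counts are unnormalized UMIs per gene and barcode, and the software version in the matrix is 3.0.2 per the file headers. The annotation release behind the counts is not given in the sources used here. Of 31053 gene IDs, 31011 matched GENCODE vM21 (GRCm38), which gave the coordinates.

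Cells were gated on raw UMIs as the report states. The members, gene lists and rules were chosen with earlier results of these data known. Doublets were limited by the hashtag rule, and a Scrublet alternative (scanpy 1.11.5) was tried. UMIs were summed per pool and scaled to CPM. Ratios have exact conditional 95% intervals, and shares have Clopper-Pearson intervals. All of these cover counting error only. On simulated counts the intervals were checked. The simulation drew independent Poisson counts per gene and pool, so it cannot show how uneven UMIs between cells affect the intervals. Named genes were the 15 highest and 15 lowest ratios among genes with at least 100 UMIs in both sums together and 50 CPM in the higher pool, then up to 4 genes past 2-fold per list or, with none, the 2 with most UMIs; other genes the text names were chosen after their values were seen. Alternatives covered thresholds, doublets, cell exclusions, scaling (including TMM factors of edgeR 4.0.16), thinning and UMI minimums. Leaving out the marker-rich cells, and the 5 cells with most UMIs of a gene, was chosen after seeing the data. Python 3.11.15, numpy 2.4.6, scipy 1.17.1 and pandas 2.3.3 were used. The receptor library was not analysed here.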

Additional observations from a re-analysis of the deposited data

Results flagged for a closer look

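C1qb, Lyz2, Ccl8, Gzmc, Igfbp7, Myo10 and Trav7d-4 stood past 2-fold in one direction in conventional CD4 cells and past 2-fold in the other direction in another gate of the same pools. The difference was not tested for any of them, since there is 1 pool per tumour. C1qb, Lyz2 and Ccl8 are myeloid genes whose UMIs sat in few cells. C1qb had a ratio of 2.29 in conventional CD4 cells and 0.0729 in Treg cells, Lyz2 8.24 and 0.194, and Ccl8 5.71 and 0.0161. In conventional CD4 cells of MC38-Ova, 1 cell held 106 of 164 UMIs of Lyz2 and 1 cell held 76 of 87 UMIs of Ccl8, and without the marker-rich cells the 3 ratios were 0.58, 0.69 and 0.63. Gzmc had 5.67 in conventional CD4 cells and 0.486 in CD8 cells, where it was abundant, with 4288 UMIs in B16-Ova and 2512 in MC38-Ova. Igfbp7 had 2.93 and 0.369 in CD8 cells, and Myo10 3.38 and 0.417 in CD8 cells. The receptor segment Trav7d-4 had 0.473 in conventional CD4 cells and 2.08 in Treg cells, on 65 and 36 UMIs in the first.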

How the results depend on the processing

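No paired analysis was possible because each tumour is 1 pool with no replicate number. The main counts were 85 higher and 31 lower genes of 6693 tested. The higher count was 49 of 6075 without cells above 12000 RNA UMIs. It was 30 of 4489 without cells with any carried-over marker and 47 of 6414 without those with at least 10 such UMIs. Without cells holding Mki67, Top2a or Rrm2 the counts were 54 and 16 of 5031. With each cell thinned to 2000 UMIs they were 20 and 18 of 3467, so higher and lower genes were then nearly equal in number. With at least 50 UMIs they were 183 and 56 of 8423, with at least 200 UMIs 42 higher of 4664, and with no minimum 1654 and 1432 of 15008. The cause was not tested, except that fewer or more genes enter with another minimum. TMM factors, division by the median ratio, and totals without ribosomal protein, mitochondrial and segment genes each kept 39 of 39 named genes past 2-fold. These settings rescale all ratios alike, and the genes were chosen as past 2-fold, so that outcome carries little information. The TMM factors were 1.006 and 0.994 and the median ratio 0.987. The mean of per-cell CPM kept 28 of 39 and thinning to 2000 UMIs 30 of 39. Among the exclusions of cells, the fewest were kept without cells holding Ifng, 23 of 38.

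The conventional CD4 share of B16-Ova and MC38-Ova cells was 9.63% and 7.34% with the stricter hashtag threshold, 5.42% and 4.57% with at least 2 Cd4 UMIs, 13.3% and 9.56% without cells above 12000 RNA UMIs, 6.14% and 4.22% without Il2ra or Ikzf2, 8.25% and 6.24% without innate-like markers, 6.03% and 4.44% without any carried-over marker and 7.15% and 5.39% without cycling cells, so B16-Ova was higher each time.

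The L-Pha medians were 267 and 289.5 with the stricter hashtag threshold, 210 and 212 without Il2ra or Ikzf2, 230 and 229 without innate-like markers, 230 and 242 without cycling cells, 265 in B16-Ova with at least 2 Cd4 UMIs and 223 in MC38-Ova without any carried-over marker. Per 100 hashtag UMIs the medians were 66.0 and 62.8 for L-Pha, for PD-1 they were 4.43 and 4.27, and the Tim-3 medians were 4.89 and 4.58.

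The Il13 share in B16-Ova was 0% with at least 1000 genes or without any carried-over marker. In MC38-Ova it was 1.88% without Il2ra or Ikzf2 and 2.51% thinned to 1000 UMIs. The Csf2 share in B16-Ova was 0.162% with at most 5% mitochondrial UMIs, 0.161% with at least 1000 genes, 0.147% thinned to 1000 UMIs, and 0% without cells above 12000 UMIs, without the highest Scrublet scores or without Il2ra or Ikzf2. In MC38-Ova it was 0.940% without Il2ra or Ikzf2 and 4.77% unthinned. The Ifng share in B16-Ova was 28.8% with at least 2 Cd4 UMIs, and 16.2% and 14.2% in the 2 pools thinned to 1000 UMIs, 39.0% and 36.6% unthinned, and 19.8% in MC38-Ova without cycling cells.

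Some ratios changed direction. With the stricter hashtag threshold Pmel was 1.35, Dct 2.08 and Tyrp1 1.59. With at least 2 Cd4 UMIs Pmel was 1.28, Dct 2.30, Tyrp1 1.54, Mlana 2.12 and Ptgds 1.18. Without cells above 12000 RNA UMIs Pmel was 1.38, Dct 1.48, Tyrp1 1.37, Mlana 1.21 and Ccl1 0.65. Without cycling cells Pmel was 1.17, Dct 1.70, Tyrp1 1.33 and Ccl2 0.95. Without the marker-rich cells Pmel was 1.27, Dct 1.32, Tyrp1 1.13, Mlana 1.01, H2-Eb1 0.90 and Ccl2 0.68. Without cells holding Ifng Pmel was 1.12, Dct 1.45, Mlana 1.20 and Ccl1 0.58. Without the 5 cells with most UMIs of each gene Pmel was 1.28, Dct 1.24, Mlana 1.16, Ccl1 0.37 and H2-Eb1 0.94. Without any carried-over marker H2-Eb1 was 0.37, Ccl2 0.88, H2-Aa 0.92 and Ly6c1 0.80. Ccl1 was 0.81 without Il2ra or Ikzf2 and 0.18 without cells holding Il4, Il5 or Il13, and H2-Eb1 was 0.51 without innate-like markers.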
